A study of Mus musculus with 6 samples.

Results

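A set of 9 genes tied to the naive state of T cells and to their travel through lymph nodes was followed across naive CD4 T cells lacking or carrying Ly-6C, a lipid-anchored surface protein of the Ly6 family. The set was chosen by name: Klf2, Foxo1, Foxo3, Foxp1, Lef1, Tcf7, Satb1, S1pr1 and Dapl1. A probe set with a single gene symbol was found for 8 of the 9, one each, among 19938 genes measured in all. Tcf7 was not analysed here. The source of both groups was C57BL/6 Foxp3-GFP mice, a reporter strain in which a fluorescent protein marks cells that make Foxp3, at an age of 6 weeks, and the tissue was peripheral lymph node. Magnetic enrichment and flow sorting gave CD4+, CD8-, TCRβ+, CD44-low, CD25- and Foxp3- cells, which were divided into Ly-6C-negative cells (3 arrays) and Ly-6C-positive cells (3 arrays). The labels call the arrays biological replicates and do not say which mice, or how many, gave the cells of an array, so the p-values measure the spread between these samples. All values are log2 expression per probe set, and each difference is the mean of Ly-6C-negative cells less that of Ly-6C-positive cells.

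A naive T cell is kept resting and recirculating by a small circle of factors. FOXO proteins stay in the nucleus while PI3K and AKT signals are low and switch on Klf2, Il7r and the homing genes. KLF2 in turn drives S1pr1, whose product senses sphingosine-1-phosphate and lets the cell leave the lymph node, while CCR7 brings cells in. FOXP1 holds naive T cells in quiescence, LEF1 and TCF7 are HMG-box partners of beta-catenin and TLE corepressors that maintain T cell identity, and SATB1 organises chromatin loops in T cells. Dapl1 encodes a small protein related to death-associated protein and is known as a transcript abundant in naive T cells.

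The arrays had medians between 6.252 and 6.287, and their number limits the precision of every value. Transcripts of Ly-6C followed the sort: a probe set listed under both Ly6c1 and Ly6c2 measured 8.49 ± 0.24 in Ly-6C-negative cells and 11.66 ± 0.067 in Ly-6C-positive cells (SD, n = 3 each). Ly-6C-negative replicate 2 stood apart from the others, with a score of 19.9 on a first principal component that held 34.6% of the variance, where the other 5 arrays scored from -10 to -0.259. The members' differences are therefore also given without it, as are those of several other genes. The identity markers of CD4 T cells averaged 10.77 to 10.90 per array in Ly-6C-negative cells and 10.75 to 10.84 in Ly-6C-positive cells over 10 measured genes. None of these passed in the unweighted fits of all arrays. Cd5, a receptor that dampens T cell receptor signals, differed by 0.41 without overlap of the groups (limma adjusted p = 0.139). Cd5 passed without Ly-6C-negative replicate 2, at 0.48 (limma adjusted p = 0.0341), and with array weights on all arrays. Averages per array of B cell markers (10 genes) were 5.20 to 5.25 in Ly-6C-negative cells and 5.19 to 5.23 in Ly-6C-positive cells. Monocyte, macrophage, neutrophil and dendritic markers (15 genes) averaged 5.37 to 5.44 in Ly-6C-negative cells and 5.38 to 5.44 in Ly-6C-positive cells, and stromal and endothelial markers (11 genes) 6.53 to 6.62 in both. No gene of these 3 marker lists passed. CD8 T cell and NK markers (15 genes) averaged 5.42 to 5.64 in Ly-6C-negative cells and 5.68 to 5.71 in Ly-6C-positive cells. Klrd1 and Gzma among them were the 2 that passed, both lower in Ly-6C-negative cells, at limma adjusted p of 0.0263 and 0.0392. Over the alternatives these limma adjusted p reached 0.199 and 0.29. In this list 9 genes lay below 0 and 6 above, with a median difference of -0.029, and Ccl5 differed by 0.59. Averages of the activated and memory markers (19 genes, 2 passed and were higher) were 6.93 to 6.98 in Ly-6C-negative cells and 6.76 to 6.81 in Ly-6C-positive cells. Regulatory T cell markers (10 genes, 4 passed and were higher) averaged 7.22 to 7.38 in Ly-6C-negative cells and 6.87 to 6.91 in Ly-6C-positive cells. Over all genes 0.145% passed. When single arrays were left out, 1 to 4 of the regulatory markers and 1 to 3 of the activated and memory markers passed. Of the genes the sort selected against, none passed. Cd44 differed by -0.25, with every Ly-6C-negative array below every Ly-6C-positive one and an interval from -0.40 to -0.11 (limma adjusted p = 0.427). The others were Il2ra, which encodes CD25, at 0.12, Cd8b1 at -0.12, Cd8a at -0.0291 and Foxp3 at 0.0129, which without Ly-6C-negative replicate 2 became 0.22, -0.21, 0.01 and 0.12. The part of these cells or programmes in the results below was not tested, and in sorted bulk RNA fewer cells of a type and less RNA per cell cannot be told apart.

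In the fit of all 6 arrays the naive-state factors and S1pr1 differed little on average, and Dapl1, at -0.49, was the member that lay apart. The 95% intervals of the other 7 members together spanned -0.25 to 0.31 log2 units in that fit, or 0.843-fold to 1.24-fold. Without Ly-6C-negative replicate 2 their differences ran from -0.14 for Klf2 to 0.19 for Lef1, so small differences remain possible. None of the 8 measured members passed a limma adjusted p of 0.05, where 0.145% of all genes did. At an unadjusted p under 0.05, 1 of the 8 passed, Dapl1, where 6.71% of all genes did. In no member did the groups separate fully, which they did in 12.6% of all genes. The difference lay within 0.2 log2 units of 0 for 7 of the 8 members and for 94.3% of all genes. Dapl1 alone lay below 0, where 52.2% of all genes did; the members' median difference was 0.044 and that of all genes -0.0048. These counts describe the members, which were chosen with earlier results known, and say nothing particular to them.

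**Figure D1:**
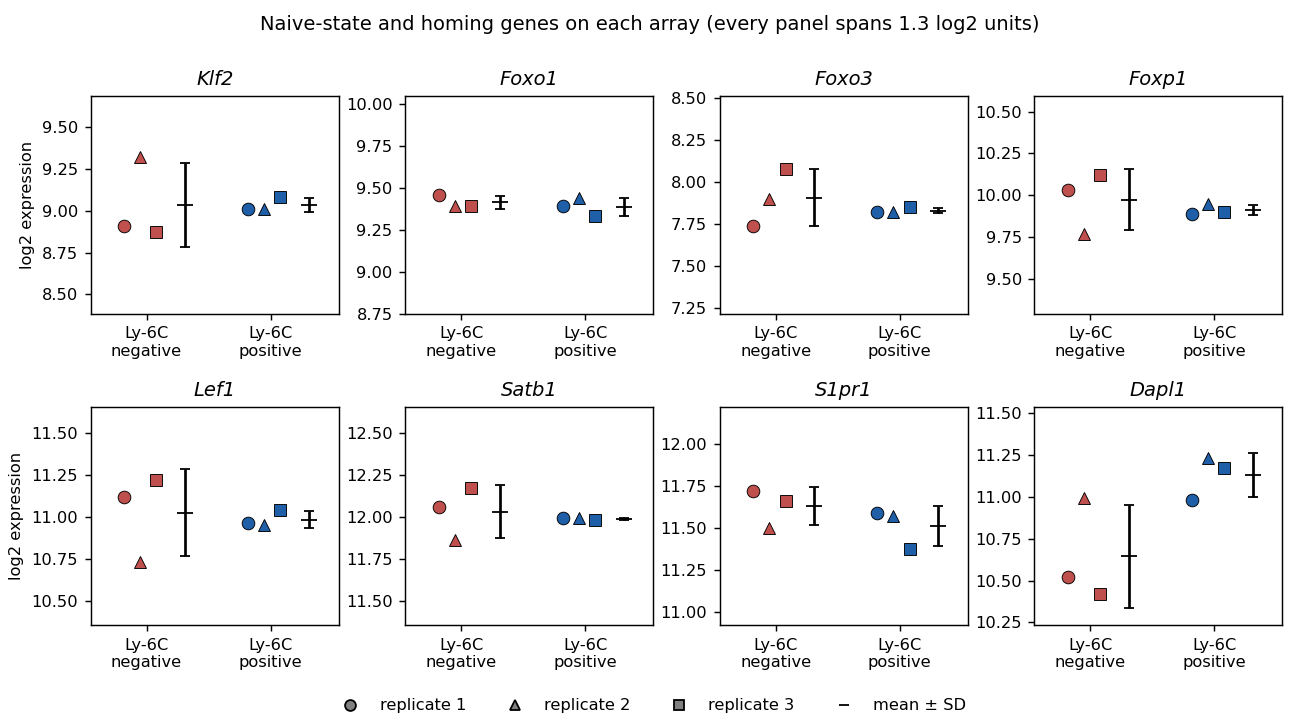
Log2 expression (y axis) of each measured gene on each array, with Ly-6C-negative cells left and Ly-6C-positive cells right in every panel; symbols mark replicate numbers and bars the mean ± SD of 3 arrays. The groups overlap in every panel, Dapl1 sits lowest in 2 Ly-6C-negative arrays (10.52 and 10.42), and Ly-6C-negative replicate 2 is the highest array for Klf2 and the lowest for Foxp1, Lef1 and Satb1.

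Of the FOXO factors, Foxo1, the main FOXO gene of naive T cells, gave 9.46, 9.39 and 9.39 in Ly-6C-negative replicates 1 to 3, against 9.39, 9.44 and 9.33 in Ly-6C-positive replicates 1 to 3. All 6 arrays lay within 0.13 of each other, a range smaller than that of most genes: 7.19% of genes had a smaller one. The difference was 0.0275 with a standard error of 0.065 and a 95% interval from -0.12 to 0.17, which spans 0.921-fold to 1.13-fold (limma adjusted p = 0.97), and it was 0.04 without Ly-6C-negative replicate 2. Foxo3, a paralogue that the same kinases restrain, gave 7.74, 7.9 and 8.08 in Ly-6C-negative cells, against 7.82, 7.82 and 7.85 in Ly-6C-positive cells. The Ly-6C-negative arrays lay on both sides of the tight Ly-6C-positive ones. Its difference was 0.0735 with a standard error of 0.088 and an interval from -0.12 to 0.27 (limma adjusted p = 0.931), and it was 0.08 without replicate 2.

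Klf2, the Krüppel-like factor that FOXO1 induces, gave 8.91, 9.32 and 8.87 in Ly-6C-negative cells, against 9.01, 9.01 and 9.08 in Ly-6C-positive cells. A single Ly-6C-negative array was above all Ly-6C-positive arrays and the others were below them all. The mean difference was 0.00434 with a standard error of 0.11 and an interval from -0.25 to 0.25, or 0.843-fold to 1.19-fold (limma adjusted p = 0.999). Without Ly-6C-negative replicate 2 it became -0.14 with an interval from -0.29 to 0.02 (limma adjusted p = 0.565), so the near-zero value averages arrays that differ in direction. S1pr1, the exit receptor downstream of KLF2, gave 11.72, 11.5 and 11.66 in Ly-6C-negative cells, against 11.59, 11.57 and 11.37 in Ly-6C-positive cells. Its difference was 0.12 with a standard error of 0.087 and an interval from -0.08 to 0.31 (limma adjusted p = 0.884). Leaving out Ly-6C-negative replicate 2 gave 0.18 (limma adjusted p = 0.539), and the difference ran from 0.05, without Ly-6C-positive replicate 3, to that value when single arrays were left out. For S1pr1, Ly-6C-negative replicates 1 and 3 lay above every Ly-6C-positive array, and replicate 2 lay above only the lowest of these. Without replicate 2 the interval ran from -0.01 to 0.37.

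Foxp1, the quiescence factor, gave 10.03, 9.77 and 10.12 in Ly-6C-negative cells, against 9.89, 9.95 and 9.9 in Ly-6C-positive cells. Lef1 gave 11.12, 10.73 and 11.22 in Ly-6C-negative cells, against 10.96, 10.95 and 11.04 in Ly-6C-positive cells. Satb1 gave 12.06, 11.86 and 12.17 in Ly-6C-negative cells, against 11.99, 11.99 and 11.98 in Ly-6C-positive cells. The 3 genes had the same order: Ly-6C-negative replicates 1 and 3 above every Ly-6C-positive array and replicate 2 below them all. Their differences were 0.055 for Foxp1, 0.0418 for Lef1 and 0.0464 for Satb1, with standard errors of 0.092, 0.12 and 0.083 (limma adjusted p of 0.951, 0.975 and 0.957). Intervals ran from -0.15 to 0.26 for Foxp1, from -0.22 to 0.3 for Lef1 and from -0.14 to 0.23 for Satb1. Without Ly-6C-negative replicate 2 the differences were 0.16, 0.19 and 0.13 (limma adjusted p of 0.527, 0.478 and 0.592). In that fit the interval of Lef1 ran from 0.03 to 0.35, and those of Foxp1 and Satb1 included 0.

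**Figure D2:**
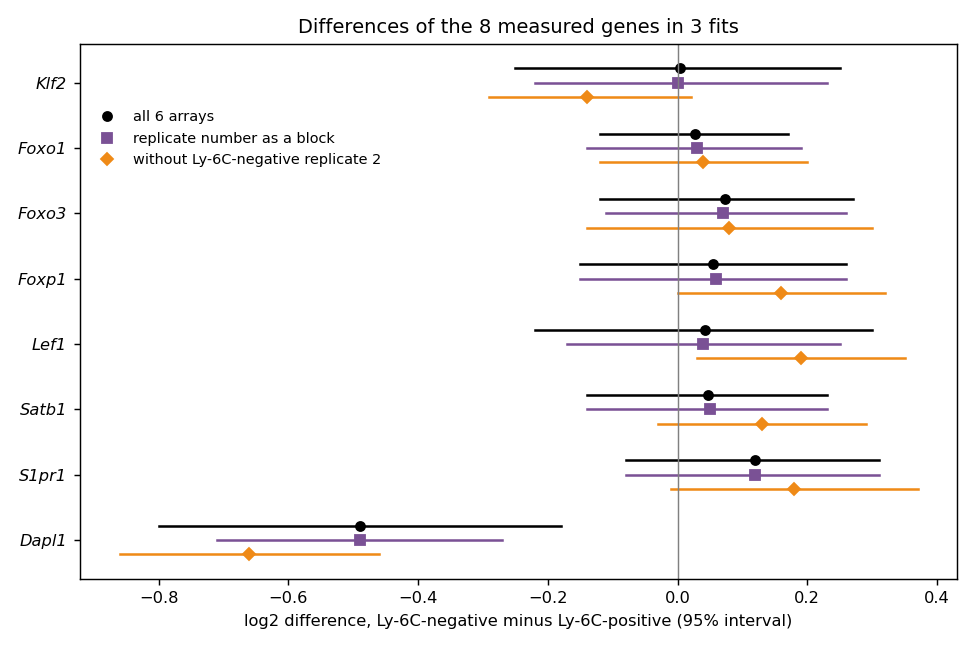
Log2 difference, positive where Ly-6C-negative cells are higher (x axis, with 95% limma intervals as lines), of each measured gene (rows) in the fit of all 6 arrays, the fit blocked on replicate number, and the fit without Ly-6C-negative replicate 2. In the fit of all arrays 7 intervals include 0 and that of Dapl1 runs from -0.8 to -0.18. Without replicate 2 the differences of Foxp1, Lef1 and Satb1 are 0.16, 0.19 and 0.13. In that fit the intervals of Lef1, from 0.03 to 0.35, and Dapl1, from -0.86 to -0.46, exclude 0.

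Dapl1 was lower in Ly-6C-negative cells on average without passing the test over all genes. It gave 10.52, 10.99 and 10.42 in Ly-6C-negative cells, against 10.98, 11.23 and 11.17 in Ly-6C-positive cells. Ly-6C-negative replicates 1 and 3 lay below every Ly-6C-positive array, and replicate 2, at 10.99, just overlapped the lowest of these at 10.98. The means were 10.64 ± 0.305 in Ly-6C-negative cells and 11.13 ± 0.134 in Ly-6C-positive cells (SD, n = 3 each), which is 1.4-fold lower in Ly-6C-negative cells. The difference of -0.49 had a standard error of 0.14 and an interval from -0.8 to -0.18 (limma adjusted p = 0.477). Between arrays of the same replicate number the differences were -0.46, -0.24 and -0.75, so all 3 pairs lay below 0, as for 14.8% of all genes. A fit blocked on the replicate number left the difference at -0.49 with an interval from -0.71 to -0.27 and did not pass (limma adjusted p = 0.167, where 0.206% of genes passed). Without Ly-6C-negative replicate 2 it was -0.66 with an interval from -0.86 to -0.46 and passed (limma adjusted p = 0.025), the only member to do so, where 0.236% of genes passed and 0.0752% were lower. Its adjusted p over 14 alternatives ran from 0.025 to 0.981, and the difference from -0.66 to -0.37.

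In most of these genes, as in most genes measured, arrays of Ly-6C-negative cells differed more from each other than those of Ly-6C-positive cells. The SD of the Ly-6C-negative arrays was the larger in 6 of 8 members, Foxo1 and S1pr1 being the exceptions, and in 61.6% of all genes. The members' median ratio of the SDs, Ly-6C-negative over Ly-6C-positive, was 5.5, against 1.29 over all genes. For Satb1 the SDs were 0.154 in Ly-6C-negative cells and 0.00571 in Ly-6C-positive cells (n = 3 each), a ratio of 27. For Foxo3 they were 0.17 in Ly-6C-negative cells and 0.0136 in Ly-6C-positive cells, a ratio of 12.5. For Lef1 they were 0.259 in Ly-6C-negative cells and 0.0522 in Ly-6C-positive cells, and for Klf2 0.248 in Ly-6C-negative cells and 0.0404 in Ly-6C-positive cells. A ratio of SDs from 3 arrays each is loose, and none of these was tested.

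Ly-6C-negative replicate 2 carried much of that spread in several members, in both directions. Foxo3 was different: its spread lay between Ly-6C-negative replicate 1, at 7.74, and replicate 3, at 8.08. Set against the mean of the other 2 Ly-6C-negative arrays, it was at -0.44 in Lef1, with 1.19% of all genes lower still. Foxp1 was at -0.31, with 4.75% of genes lower, Satb1 at -0.25, with 8.05% lower, and S1pr1 at -0.19, with 13.3% lower. Klf2 was at 0.43 and Dapl1 at 0.52, with 97.6% and 98.7% of genes lower, while Foxo1 and Foxo3 were near the middle at -0.04 and -0.01. In all, 4 of 8 members lay in the outer 5% on either side. Lef1, Satb1 and Foxp1 had their lowest value on that array and their highest on Ly-6C-negative replicate 3, as 7.05% of all genes did. On the same array the CD8 T cell and NK markers averaged 5.64, the highest of the 3 Ly-6C-negative arrays, and the CD4 T cell identity markers 10.77, the lowest. Activated and memory markers, at 6.98, and B cell markers, at 5.25, were also highest there. Regulatory T cell markers, at 7.22, and monocyte, macrophage, neutrophil and dendritic markers, at 5.37, were also lowest, and stromal and endothelial markers, at 6.56, lay between. Cd8a itself gave 6.18 on that array, against 6.33 and 6.27 on Ly-6C-negative replicates 1 and 3. The part of those markers in the members' values was not tested.

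**Figure D3:**
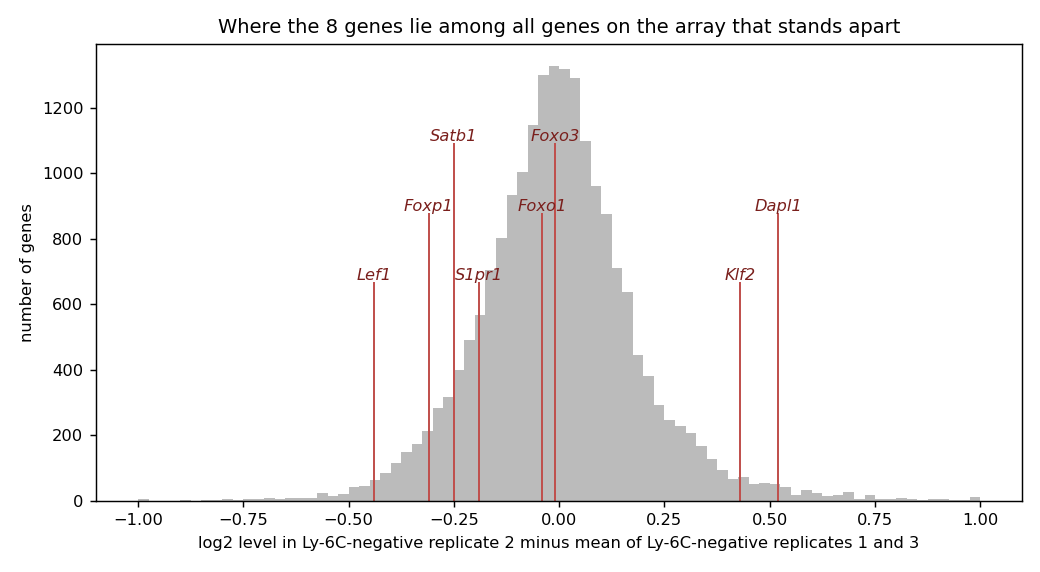
Number of genes (y axis) by the log2 level in Ly-6C-negative replicate 2 minus the mean of Ly-6C-negative replicates 1 and 3 (x axis, in log2 units); red lines mark the 8 measured genes and 16 genes beyond the axis are drawn in the outermost bars. Lef1 at -0.44 and Foxp1 at -0.31 lie in the lower tail, Klf2 at 0.43 and Dapl1 at 0.52 in the upper one, and Foxo1 and Foxo3 near 0.

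The stretches before the start sites are shown for the members that moved together on that array, Foxp1, Lef1 and Satb1, and for Klf2 and Dapl1, which moved the other way. RefSeq windows were found for 8 of the 9 genes on build GRCm38.p6; S1pr1 was the other one. Each is given 5′ to 3′ in the gene's direction, the 250 bases before the start that lies farthest upstream, in lower case, with capitals marking matches on either strand to the forkhead letters GTAAACA, the TCF letters CTTTGA or the KLF letters CACCC.
Dapl1, chr2:59484403-59484652, plus strand: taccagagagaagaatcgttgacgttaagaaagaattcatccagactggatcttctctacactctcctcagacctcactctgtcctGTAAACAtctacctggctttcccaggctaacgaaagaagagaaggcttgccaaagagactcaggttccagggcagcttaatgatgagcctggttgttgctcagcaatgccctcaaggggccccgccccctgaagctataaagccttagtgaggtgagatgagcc
Klf2, chr8:72318812-72319061, plus strand: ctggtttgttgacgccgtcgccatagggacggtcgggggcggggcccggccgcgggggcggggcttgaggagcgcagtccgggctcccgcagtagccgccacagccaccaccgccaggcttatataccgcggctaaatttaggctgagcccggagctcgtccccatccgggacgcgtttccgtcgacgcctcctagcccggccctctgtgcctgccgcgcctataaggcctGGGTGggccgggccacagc
Foxp1, chr6:99520994-99521243, minus strand: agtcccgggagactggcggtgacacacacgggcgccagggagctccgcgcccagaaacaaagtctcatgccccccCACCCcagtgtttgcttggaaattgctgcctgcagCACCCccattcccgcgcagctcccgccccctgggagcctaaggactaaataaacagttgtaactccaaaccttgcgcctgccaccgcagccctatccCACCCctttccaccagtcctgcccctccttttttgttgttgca
Lef1, chr3:131110047-131110296, plus strand: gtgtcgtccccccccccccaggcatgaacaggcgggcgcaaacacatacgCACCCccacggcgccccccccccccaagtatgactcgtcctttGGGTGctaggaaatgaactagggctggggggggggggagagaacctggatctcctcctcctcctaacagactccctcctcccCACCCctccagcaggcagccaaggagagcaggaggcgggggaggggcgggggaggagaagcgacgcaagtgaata
Satb1, chr17:51833291-51833540, minus strand: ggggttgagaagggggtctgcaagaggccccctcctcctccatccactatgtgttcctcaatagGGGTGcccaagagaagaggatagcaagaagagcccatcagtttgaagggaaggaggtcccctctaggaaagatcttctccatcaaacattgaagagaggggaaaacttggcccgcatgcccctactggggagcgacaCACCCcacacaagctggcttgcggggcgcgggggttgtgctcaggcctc
Dapl1 held the forkhead letters, which began 164 bases before the start, and was the 1 of the 8 genes whose window did, where 3.17% of all 32851 windows of that length held them. The TCF letters were in 0 of these 8 first windows and the KLF letters in 5 of them. The shares over all windows, 13.8% for the TCF letters and 52% for the KLF letters, count every start of a gene. Over all 18 windows of the 8 genes, 1 held the forkhead letters, 2 the TCF letters and 13 the KLF letters. Those with the TCF letters were a downstream start of Foxp1 and one of Lef1. Windows of a gene can overlap. The first and second windows of Lef1 share bases and the same KLF matches, so these counts are not of separate sequences. The window of Klf2 was 71.2% G and C and that of Dapl1 50%, against a median of 52.4% over all windows. A match of letters is a description of the sequence and not a binding site.

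Of genes known to be switched on by FOXO1 in naive T cells, neither Il7r nor Ccr7 passed the test. Il7r, the receptor chain for the survival cytokine IL-7, gave 11.27, 11.35 and 11.84 in Ly-6C-negative cells, against 11.41, 11.5 and 11.67 in Ly-6C-positive cells, a difference of -0.0423 with an interval from -0.35 to 0.27 (limma adjusted p = 0.981). Without Ly-6C-negative replicate 2 it was 0.03, and it ran from -0.22 to 0.06 when single arrays were left out. Ccr7, the receptor for lymph node entry, gave 10.86, 10.38 and 10.68 in Ly-6C-negative cells, against 10.65, 10.69 and 10.52 in Ly-6C-positive cells, a difference of 0.017 with an interval from -0.24 to 0.27 (limma adjusted p = 0.994). Without replicate 2, the lowest array for Ccr7, it was 0.15 with an interval from -0.05 to 0.34. In a list of 26 measured FOXO target genes none passed limma's adjusted p of 0.05, 22 lay above 0 and the median difference was 0.062. Over all genes 52.2% lay below 0 and the median was -0.0048. The 4 with the smallest p were Fbxo32, a ubiquitin ligase subunit that FOXO factors induce in muscle, at 0.38, the transcriptional repressor Bcl6 at 0.30, the survival gene Bcl2 at 0.21 and the cyclin-like Ccng2 at 0.28. Their limma adjusted p were 0.285, 0.336, 0.578 and 0.615. Without Ly-6C-negative replicate 2 their differences were 0.46, 0.36, 0.21 and 0.39 (limma adjusted p of 0.0796, 0.0965, 0.453 and 0.0923). The groups did not overlap in 5 of the 26 genes, against 12.6% of all genes. The lists share some genes with each other, Il7r among them.

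Enzymes that control FOXO factors also gave 0 of 28 past the threshold, with 22 above 0 and a median of 0.051, where 52.2% of all genes lay below 0. Pik3cd, the PI3K catalytic subunit of lymphocytes, differed by 0.22 (limma adjusted p = 0.473), Mdm2, a ubiquitin ligase, by 0.23 (0.617), the regulatory subunit gene Pik3r2 by 0.22 (0.711; 0.12 on the log2 scale without Ly-6C-negative replicate 2) and the AKT phosphatase gene Phlpp1 by -0.18 (0.741). Of 28 KLF and forkhead paralogues 14 lay above 0 and 14 below, none passed, and differences ran from -0.20 to 0.19. The repressor gene Klf3 differed by 0.019, Klf6 by -0.0916, Klf13 by -0.16, Foxo4 by -0.0187 and Foxp4 by 0.0118; without Ly-6C-negative replicate 2 these were 0.04, -0.17, -0.20, -0.06 and 0.08. Partners and paralogues of TCF, LEF and SATB proteins had 16 of 25 above 0 and a median of 0.04; Sox4, an HMG-box factor, differed by 0.33 (limma adjusted p = 0.473), Bcl9, a beta-catenin coactivator, by 0.15, Tox, an HMG-box factor of thymocyte development, by 0.15, and Tcf7l2 by 0.0614, with none past the threshold. Counts of these lists are descriptions, without a test of the list.

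Among other naive-state and quiescence genes, Myb was higher in Ly-6C-negative cells in the fit blocked on the replicate number. Myb encodes a transcription factor of progenitors and thymocytes. It gave 9.03, 8.51 and 8.5 in Ly-6C-negative cells, against 7.97, 7.69 and 7.66 in Ly-6C-positive cells. Every Ly-6C-negative array was above every Ly-6C-positive one, and replicate 1 was the highest array of its group in both. The difference was 0.91 with a standard error of 0.14, and the limma adjusted p was 0.0643, or 0.00133 with the replicate block and 0.0368 without Ly-6C-negative replicate 2. Of the 30 measured genes of this list none passed in the unblocked fit of all arrays as deposited. Myb was the 1 that passed with the block, without that array, with array medians subtracted and with array weights. It did not pass in the other alternatives, among them the fits that left out any other single array. Over 14 alternatives the limma adjusted p of Myb ran from 0.00133 to 0.457, and its difference from 0.73 to 1.02. In the list 19 lay above 0 and the median was 0.057. Next by p came the CCR4-NOT subunit gene Cnot3 at 0.20, Bach2, a repressor that preserves the naive state, at 0.16, and Id3, an inhibitor of E proteins, at 0.39 (limma adjusted p of 0.629, 0.724 and 0.736). Id3 measured 8.09 in Ly-6C-negative replicate 2 and 7.39 and 7.34 in the other Ly-6C-negative arrays, against 7.14 to 7.27 in Ly-6C-positive cells. Without that array its difference was 0.15 with an interval from -0.01 to 0.32.

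**Figure D4:**
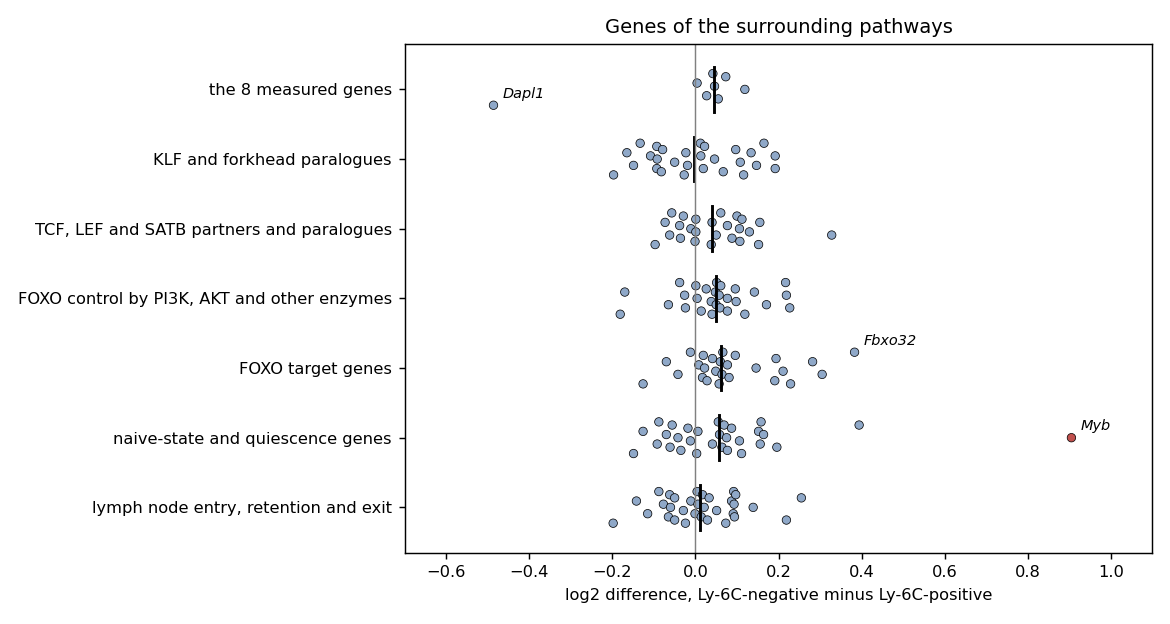
Log2 difference, positive where Ly-6C-negative cells are higher (x axis), of each measured gene (points) in the 8 members and 6 lists (rows); black lines mark medians and red points genes past a limma adjusted p of 0.05 with the replicate block. Myb at 0.91 is the red point, Dapl1 at -0.49 lies lowest, and the list medians run from -0.0035 for KLF and forkhead paralogues to 0.062 for FOXO targets.

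Genes of lymph node entry, retention and exit had differences from -0.20 to 0.26. Of 32 measured, none passed limma's adjusted p of 0.05 in any of the fits with all arrays, with the block or without Ly-6C-negative replicate 2; 18 lay above 0 and the median was 0.01. S1pr5, another sphingosine-1-phosphate receptor, gave 6.15, 6.24 and 6.1 in Ly-6C-negative cells, against 6.42, 6.33 and 6.33 in Ly-6C-positive cells, a difference of -0.20 (limma adjusted p = 0.615). S1pr4 differed by 0.0917, and Cd69, whose product pulls S1PR1 from the surface, by -0.0243. Itgal, the integrin chain of LFA-1, differed by 0.26 (limma adjusted p = 0.732), Itgb1 by 0.14 (0.842) and Coro1a, an actin regulator needed for naive T cell migration and survival, by -0.14 (0.742). Itgal gave 9.28, 8.97 and 9.44 in Ly-6C-negative cells, against 8.93, 9.0 and 8.99 in Ly-6C-positive cells, so replicate 2 was again low among the Ly-6C-negative arrays, and without it the difference was 0.39 (limma adjusted p = 0.127).

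For each member the gene of most similar profile was looked up among 9968 genes at least as bright as the median gene, by Pearson correlation over the 6 arrays. For Lef1 it was Zfp715 (r = 0.997), for Satb1 Golga3 (r = 0.998), for Foxp1 Dcaf8 (r = 0.996) and for Klf2 Selenoh (r = 0.995). Foxo1 went with Vrk2 (r = 0.991), Foxo3 with Gm10640 (r = 0.996), S1pr1 with Trappc11 (r = 0.994) and Dapl1 with Col5a3 (r = 0.969). Over 6 arrays high values come easily: r reached 0.95 in 179 genes for Lef1, 161 for Satb1, 116 for Foxp1 and 93 for Klf2, but in 13 for Dapl1 and 12 for Foxo1. The arrays share their processing, and no p is given for a pair picked from so many.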

How the data were processed

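Log2 expression of 28853 probe sets on 6 Affymetrix arrays was taken as deposited. Per the labels' protocols, 50 ng of total RNA was amplified as cDNA and labelled with biotin. RMA and Partek are named in the submitters' processing notes, with no version or role; chip description and build are not given in the sources. RMA makes arrays' distributions alike, so a shift common to every gene is lost, and dim genes show compressed differences.

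In the platform annotation 21789 probe sets carry 1 symbol, 1621 several, and 5443 are not listed. Symbols were updated by Entrez ID for 21698. The brightest probe set was kept for each gene. Differences were fitted in R 4.3.3 with limma 3.58.1 (lmFit, then eBayes, 2-sided, no covariate, no filter on dim genes, 5.56 prior degrees of freedom), with Benjamini-Hochberg adjustment over 19938 genes and a threshold of 0.05. Alternatives were other scalings, a filter on dim genes, other uses of probe sets, other variance models, array weights, a replicate block and leaving out each array. Steps were tested on simulated data. The members and lists were chosen with earlier results of these data known.

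Replicate numbers are shared by the groups. Deviations of same-numbered arrays correlated across genes with r of 0.129, 0.128 and 0.107. Each was above 0.1, so the numbers were read as pairs, from these values and not from the labels. The values are weak and 0.1 was a chosen limit, so the pairing is not certain. The main fit left it out, and the replicate block was an alternative only. The choice matters for some genes. Limma adjusted p was 0.0643 without the block and 0.00133 with it for Myb, and 0.477 and 0.167 for Dapl1. Besides the members and a short fixed set, the up to 4 genes with the smallest p are named for each pathway list. Figures were drawn with matplotlib 3.10.9.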

Additional observations from a re-analysis of the deposited data

How the results depend on the processing

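All alternatives were planned. With the replicate number as a block 41 genes passed instead of 29, 0 of the members, and 11 instead of 8 genes of the pathway and marker lists. The block changed the call of no member; among the list genes it added Myb, Icos and Prf1. Testing each probe set separately gave 45 calls and array weights 54. With one array left out, the calls over all genes ran from 5 to 47: 5 without Ly-6C-negative replicate 1, 47 without replicate 2, and 8, 6 and 8 without Ly-6C-positive replicates 1, 2 and 3. Calls among the members ran from 0 to 1, the 1 being Dapl1 without Ly-6C-negative replicate 2, and those in the lists from 2 to 11. Members below 0 were 2 after a second quantile normalization and 2 with array weights, Klf2 being added at -0.009 and -0.06, and 1 to 5 with one array left out, 5 without Ly-6C-negative replicate 3. With one array left out the differences ran from -0.14 to 0.09 for Klf2, from -0.01 to 0.16 for Foxo3, from -0.02 to 0.16 for Foxp1, from -0.06 to 0.19 for Lef1 and from -0.02 to 0.13 for Satb1, so none of these 5 has a settled direction; the cause was not tested. Foxo1 and S1pr1 stayed above 0 and Dapl1 below 0 in all 14 fits. With 3 arrays a group, 95% intervals of the members were 0.29 to 0.62 log2 units wide.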
